A study of Mus musculus with 9 samples.

Results

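The colony stimulating factors and receptors described here are 6 genes, chosen by name out of the 53801 genes in the count tables: the ligands Csf1 and Il34, their shared receptor Csf1r, and the receptor chains Csf2ra, Csf2rb and Csf2rb2. They were measured by bulk RNA-seq in sorted monocytes/macrophages of male C57BL/6J mice aged 9 weeks, in 3 groups of 3 libraries. The stroke brain and stroke blood groups came from mice 5 days after stroke, made by permanently closing the distal middle cerebral artery and the common carotid artery on the left side (dMCAO), and the sham blood group came from sham-operated mice, with no sham brain group analysed here. Brain cells were taken from the ipsilesional hemisphere with 5 mice pooled in each library, blood cells from 1 mouse in each library, and all cells were sorted as CD11c-Ly6G-CD11b+CD45high. The gate selects on surface proteins and not on where a cell came from. Preparation also differed: brain tissue was dissociated in a heated instrument and its cells separated on Percoll, while blood was separated on Ficoll. Effects of preparation cannot be told apart from those of compartment here.

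CSF1 and IL-34 are separate ligands for the receptor tyrosine kinase CSF1R, which monocytes, macrophages and microglia carry and on which microglia depend for survival. GM-CSF, the product of Csf2, binds the alpha chain encoded by Csf2ra together with the common beta chain encoded by Csf2rb, and the beta chain also serves the receptors for IL-3 and IL-5. Mice carry a second, closely related beta gene, Csf2rb2, whose product pairs with the IL-3 receptor alpha chain.

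The libraries held 18475118 to 22623578 counts. The brain libraries differed from the blood libraries in markers of other cells. The summed level of the 10 microglia markers was 1413 to 4081 counts per 1000000 (CPM) in stroke brain, 149.4 to 206 CPM in stroke blood and 159.3 to 209.2 CPM in sham blood, with Sall1 at 0 in every blood library, and 10 of 10 were called higher in stroke brain than in stroke blood. Monocyte markers ran the other way in sum, at 44370 to 45700 CPM in stroke brain and 88160 to 125200 CPM across both blood groups. Single genes differed, with 2 of the 8 called higher and 3 lower, and Lyz2 made up most of each sum. It averaged 38100 CPM in stroke brain, 97840 CPM in stroke blood and 97610 CPM in sham blood, so the sums mainly describe that gene. The 7 dendritic cell markers summed to 708.8 to 863.9 CPM in stroke brain and 98.6 to 224.2 CPM in stroke blood (6 of 7 called higher), and the 6 border-associated macrophage markers to 206.5 to 435.8 against 93.7 to 131.8 CPM (4 of 5 tested called higher). Pf4, also a platelet marker, held most of that stroke blood sum and was not called (89.6 CPM on average, 53.0 CPM in stroke brain). The 5 platelet markers summed to 33.7 to 78.0 CPM in stroke brain and 285.2 to 342.9 CPM in stroke blood. Erythroid markers stood at 3.80 to 13.7 CPM in stroke brain and at 14050 to 20390 CPM in stroke blood, and sham blood replicate 1 was low among the sham libraries at 1247 CPM. Of the 8 neutrophil and granulocyte precursor markers, 7 were tested in stroke brain over stroke blood, with 6 called higher, among them Mpo (log2 fold change 6.41, edgeR adjusted p = 0.000877) and Elane (4.57, edgeR adjusted p = 0.00911), and Mmp8 called lower (-1.79, edgeR adjusted p = 8.06e-05), although the gate was Ly6G-. They summed to 473.7 to 941.5 CPM in stroke brain and 454 to 543.9 CPM in stroke blood. Sham blood replicate 3 stood apart at 2302 CPM, against 631 and 641.3 CPM in replicates 1 and 2. It had 17659 counts of S100a8 against 846 and 1650, and 23532 of Mmp8 against 10442 and 11788. Ngp, Camp and Ltf were instead highest in replicate 1, at 725, 199 and 440 counts, against 158, 33 and 78 in replicate 3. Neuron markers were at or below 2.53 CPM in every library. In bulk RNA, fewer cells of a type and less RNA per cell cannot be told apart, and the part these markers play in the results below was not tested.

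Per kilobase of exon, the scale on which levels of different genes can be compared, the 6 genes had the same order in all 9 libraries: Csf1r, Csf2ra, Csf2rb, Csf2rb2, Csf1 and Il34. Csf1r averaged 449.4, 459.7 and 540 CPM per kb in sham blood, stroke blood and stroke brain, and Csf2ra 80.3, 102 and 106.2 CPM per kb. The level of Csf1r thus lay well above that of the other members, with no overlap in any group. Csf2rb averaged 55.0, 49.3 and 48.5 CPM per kb in the same order of groups. Its libraries overlapped those of its neighbour Csf2ra in sham blood, where the highest Csf2rb library reached 75.3 CPM per kb and the lowest Csf2ra library 70.3 CPM per kb, but not in the other two groups. Csf2rb2 averaged 9.53, 8.40 and 6.17 CPM per kb and Csf1 1.24, 0.688 and 2.92 CPM per kb. These neighbours overlapped in stroke brain, where Csf1 reached 4.24 CPM per kb in replicate 1 and Csf2rb2 stood at 2.98 CPM per kb in replicate 3.

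**Figure D1:**
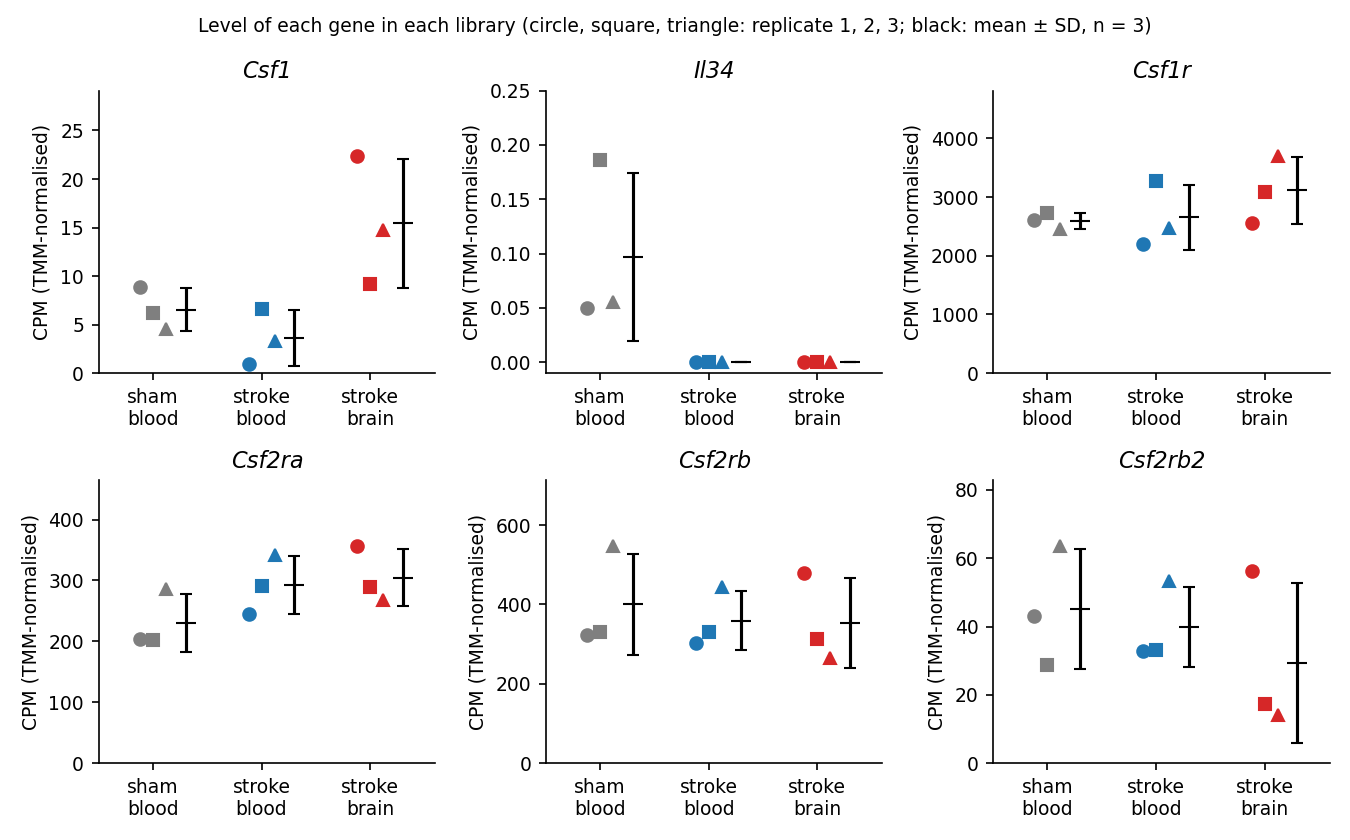
Level of each gene, as CPM after TMM normalisation on the vertical axis, in each of the 9 libraries (symbols mark replicates 1, 2 and 3), with the mean and SD of each group (n = 3) in black. Csf1 is the member whose stroke brain libraries, at 9.17 to 22.4 CPM, all lie above every blood library.

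Csf1 encodes macrophage colony stimulating factor, the ligand that keeps most tissue macrophages alive. The gene lies on the minus strand of chromosome 3 (GRCm38, chr3:107741048-107760469), and its exons overlap no other annotated gene. Its level was 8.90, 6.24 and 4.54 CPM in sham blood replicates 1 to 3, from 179, 134 and 82 counts. In stroke blood it was 0.917, 6.64 and 3.35 CPM, from 18, 140 and 56 counts. In stroke brain it was 22.4, 9.17 and 14.7 CPM, from 460, 221 and 338 counts. The brain libraries were thus higher than all 6 blood libraries, while the blood groups overlapped, and stroke blood replicate 1 was the lowest of all. Group means were 6.56 ± 2.20, 3.63 ± 2.87 and 15.4 ± 6.64 CPM (SD, n = 3).

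Csf1 rose 4.30-fold in stroke brain over stroke blood (log2 fold change 2.11, SE 0.61, 95% confidence interval 0.73 to 3.48, adjusted p = 0.0286, edgeR quasi-likelihood test with Benjamini-Hochberg adjustment). A gene was called when its log2 fold change exceeded 1 in either direction with an adjusted p under 0.05. Csf1 was the 1 member called, and called higher, of the 5 tested in this comparison, where 21.0% (13.1% higher and 7.86% lower) of the 13189 genes tested were called and 48.2% had groups that did not overlap, so the count over the family was no higher than the background. The split of all calls, 1734 higher and 1037 lower, depended on the scaling, with 1515 and 1362 under upper quartile and 2058 and 792 under library size only. The log2 fold change ranged from 1.62 (without stroke blood replicate 1) to 2.88 (without stroke blood replicate 2) as each library was left out. The call was lost without stroke blood replicate 3 (2.02, edgeR adjusted p = 0.101), without stroke brain replicate 1 (1.73, edgeR adjusted p = 0.0695) and without stroke brain replicate 3 (2.15, edgeR adjusted p = 0.0614), and over all alternatives the adjusted p ranged from 0.000839 (DESeq2) to 0.101. Stroke brain replicate 1, the highest library for Csf1, had the lowest summed microglia markers of its group, 1413 CPM, against 2119 and 4081 CPM in replicates 2 and 3. The summed dendritic cell markers (863.9, 708.8 and 781.6 CPM in replicates 1 to 3) and neutrophil markers (941.5, 473.7 and 749.1 CPM) had the same order over these 3 libraries as Csf1. Single markers differed: S100a8, Elane and Camp had that order. Siglech, on both the microglia and dendritic cell lists, and Ngp were highest in replicate 3 (3614 and 7098 counts). Ltf was lowest in replicate 1 (460 counts). The part of any of these lists in the result was not tested.

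Against sham blood, Csf1 was 2.35-fold higher in stroke brain but did not pass the test (log2 fold change 1.23, SE 0.39, 95% confidence interval 0.33 to 2.13, edgeR adjusted p = 0.0621), though the groups did not overlap. DESeq2 called it (log2 fold change 1.22, adjusted p = 0.0159), and over all alternatives the adjusted p ranged from 0.0159 to 0.177. In this comparison edgeR called 0 of the 5 members tested (1 at an unadjusted p under 0.05) and DESeq2 called 1, against a background of 13.4% of 13020 genes called by edgeR (9.75% higher and 3.67% lower), 34.3% at an unadjusted p under 0.05 and 41.2% with groups that did not overlap. Between the blood groups, Csf1 was at a log2 fold change of -0.87 in stroke over sham (SE 0.60, 95% confidence interval -2.23 to 0.48, edgeR adjusted p = 0.563). There edgeR called 0 of 5 members, with 0 at an unadjusted p under 0.05 and 0 by DESeq2, against 0.00790% of 12664 genes called and 12.5% at an unadjusted p under 0.05. The 3 comparisons share libraries, so their values stand side by side and are not independent.

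**Figure D2:**
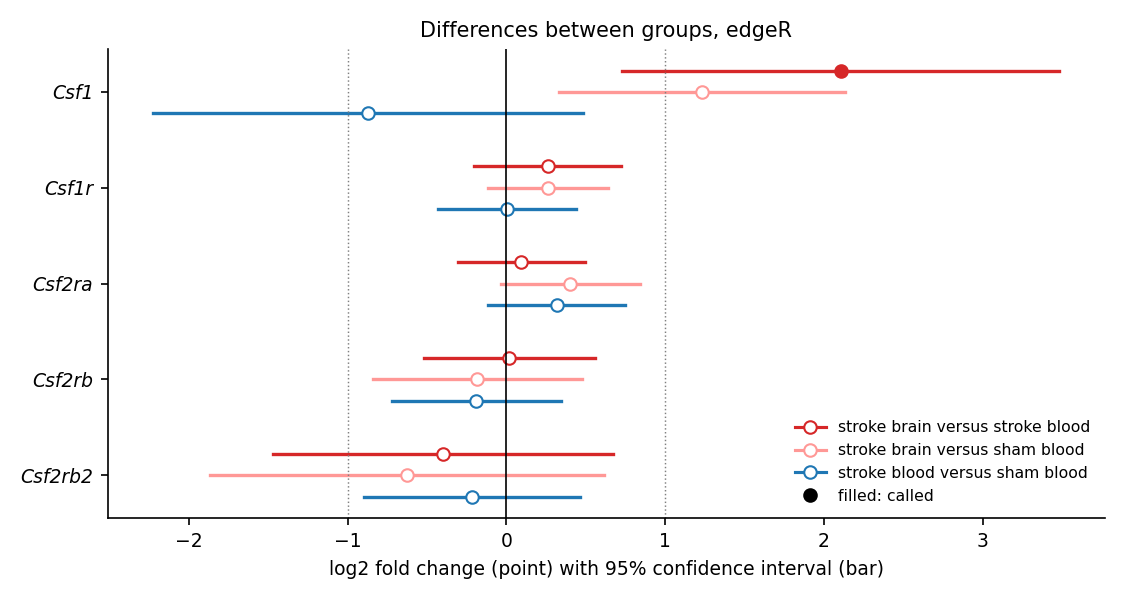
Log2 fold change (points) with its 95% confidence interval (bars) on the horizontal axis for the 5 members tested, in the 3 comparisons, with filled points for called genes and dotted lines at the fold change threshold. Csf1 in stroke brain over stroke blood, at 2.11, is the filled point, and the intervals of the 4 receptor genes all include 0.

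The promoter of Csf1, as RefSeq gives it on GRCm38.p6 (300 bases, 250 before the start site and 50 from it, chr3:107760420-107760719, minus strand), is shown because Csf1 was the member called, and beside it that of Csf2ra (chr19:61228369-61228668, minus strand), which was not called. Entries were used for 3 of the 6 members, Csf1, Csf2ra and Csf2rb2. The motifs searched on both strands were GAGGAA (bound by PU.1 and other ETS factors), TGANTCA (AP-1), the NF-kB letters GGGA, any base, then TTTCC, TGACGTCA (CRE) and TTGCNNAA (C/EBP), and capitals mark their matches, read 5′ to 3′.
Csf1: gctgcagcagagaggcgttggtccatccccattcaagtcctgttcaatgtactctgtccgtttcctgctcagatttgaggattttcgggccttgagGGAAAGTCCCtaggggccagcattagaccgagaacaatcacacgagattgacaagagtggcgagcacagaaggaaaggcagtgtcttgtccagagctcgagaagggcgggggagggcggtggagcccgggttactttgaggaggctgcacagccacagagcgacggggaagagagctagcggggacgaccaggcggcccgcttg
Csf2ra: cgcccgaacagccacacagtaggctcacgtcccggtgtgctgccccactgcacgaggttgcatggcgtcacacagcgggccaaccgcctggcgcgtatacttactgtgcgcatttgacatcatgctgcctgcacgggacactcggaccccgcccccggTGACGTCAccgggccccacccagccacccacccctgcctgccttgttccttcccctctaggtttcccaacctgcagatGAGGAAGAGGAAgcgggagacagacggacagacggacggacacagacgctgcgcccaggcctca
The Csf1 window held 1 match, to the NF-kB letters on the opposite strand, at bases -154 to -145 from the start site. Of 32851 promoters of this length, 0.411% held that motif. The Csf2ra window held GAGGAA in tandem at -14 to -9 and -8 to -3, a motif in 28.3% of promoters, and the CRE letters at -92 to -85, in 1.79%. The Csf2rb2 promoter, not printed, held GAGGAA on the opposite strand at -167 to -162 and at 30 to 35. The AP-1 and C/EBP letters, in 7.81% and 10.8% of promoters, matched none of these windows. A match is a description of the letters and not of a bound factor.

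Il34 encodes the other CSF1R ligand, made mainly by neurons and by epidermal cells. It had 1, 4 and 1 counts in the sham blood libraries and 0 counts in each stroke blood and stroke brain library. A count of 0 allows up to 3 counts in a library by counting error alone. The sham count of 4 lies above that floor and the sham counts of 1 below it, too few counts to say whether the groups differ. Il34 did not pass the filter on low counts in any comparison and was not tested. The gene (chr8:110741829-110805924, minus strand) overlaps the antisense genes Gm15895 and Gm15894 over 75 and 22 of its 1959 exon bases.

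Csf1r, the receptor for both ligands, was among the more abundant transcripts in every library. Sham blood stood at 2608, 2723 and 2453 CPM, stroke blood at 2208, 3274 and 2481 CPM, and stroke brain at 2566, 3084 and 3704 CPM. The groups overlapped: the lowest brain library lay within the range of both blood groups. Means were 2595 ± 136, 2654 ± 554 and 3118 ± 570 CPM (SD, n = 3). The level in stroke brain was 1.20 times that in stroke blood (log2 fold change 0.26, SE 0.21, 95% confidence interval -0.20 to 0.72, edgeR adjusted p = 0.367) and the same 1.20 times that in sham blood (log2 fold change 0.26, SE 0.16, 95% confidence interval -0.12 to 0.64, edgeR adjusted p = 0.296). These intervals reach no further than 1.65-fold and 1.56-fold higher. Between the blood groups the log2 fold change was 0.0047 (SE 0.19, 95% confidence interval -0.43 to 0.44, edgeR adjusted p = 0.994). Within stroke brain, the library order of Csf1r, lowest in replicate 1 and highest in replicate 3, was that of the summed microglia markers (1413, 2119 and 4081 CPM), over 3 libraries only. Csf1r lies at chr18:61105572-61132149 on the plus strand, and 873 of its 5774 exon bases overlap Hmgxb3 on the opposite strand, where reads cannot be told apart without strand.

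Csf2ra encodes the alpha chain that gives the GM-CSF receptor its specificity. It stood at 203.4, 201.9 and 285.9 CPM in sham blood, at 245.8, 291.6 and 341.4 CPM in stroke blood, and at 357.1, 290.1 and 267.2 CPM in stroke brain. All 3 groups overlapped, with sham blood replicates 1 and 2 the lowest libraries. Means were 230.4 ± 48.1, 293 ± 47.8 and 304.8 ± 46.7 CPM (SD, n = 3). The log2 fold change was 0.09 in stroke brain over stroke blood (SE 0.18, 95% confidence interval -0.31 to 0.49, edgeR adjusted p = 0.721), 0.40 over sham blood (SE 0.19, 95% confidence interval -0.04 to 0.84, edgeR adjusted p = 0.177) and 0.32 in stroke over sham blood (SE 0.19, 95% confidence interval -0.12 to 0.75, edgeR adjusted p = 0.514). The exons of Csf2ra (chr19:61224402-61228418, minus strand) overlap no other gene.

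Csf2rb encodes the signalling beta chain shared by the receptors for GM-CSF, IL-3 and IL-5. Its libraries stood at 322.1, 331.5 and 547.8 CPM in sham blood, 302, 330.7 and 443 CPM in stroke blood, and 480.1, 313.5 and 266 CPM in stroke brain. The spread within each group covered the differences between them, with means of 400.5 ± 128, 358.6 ± 74.6 and 353.2 ± 112 CPM (SD, n = 3). In stroke brain over stroke blood the log2 fold change was 0.02 (SE 0.24, 95% confidence interval -0.52 to 0.56, edgeR adjusted p = 0.963), and over sham blood it was -0.18 (SE 0.28, 95% confidence interval -0.84 to 0.48, edgeR adjusted p = 0.69). The blood groups differed by -0.19 (SE 0.24, 95% confidence interval -0.72 to 0.34, edgeR adjusted p = 0.752). Sham blood replicate 3 was the highest library for both beta genes and the highest sham library for Csf2ra. It was the one with the high neutrophil sum, in which S100a8 and Mmp8 were high but Ngp, Camp and Ltf were not. Without sham blood replicate 3 the log2 fold changes in stroke over sham blood were 0.09 for Csf2rb and 0.10 for Csf2rb2, neither called. That of Csf2rb in stroke brain over sham blood was 0.10. Intervals of this width do not show that the groups are alike.

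Csf2rb2, the beta gene that serves IL-3 alone, had the lower level of the beta genes in every library. Sham blood held 43.0, 28.8 and 63.7 CPM, stroke blood 32.8, 33.3 and 53.3 CPM, and stroke brain 56.2, 17.4 and 14.1 CPM. Stroke brain replicates 2 and 3 were thus the lowest of the 9 libraries, while replicate 1 was the second highest. Means were 45.2 ± 17.6, 39.8 ± 11.7 and 29.3 ± 23.4 CPM (SD, n = 3). The log2 fold change in stroke brain was -0.40 against stroke blood (SE 0.48, 95% confidence interval -1.47 to 0.67, edgeR adjusted p = 0.563) and -0.63 against sham blood (SE 0.54, 95% confidence interval -1.87 to 0.61, edgeR adjusted p = 0.446), with -0.22 between the blood groups (SE 0.30, 95% confidence interval -0.90 to 0.47, edgeR adjusted p = 0.781). One library decided this value: without stroke brain replicate 1, Csf2rb2 was called lower against both stroke blood (log2 fold change -1.30, edgeR adjusted p = 0.00691) and sham blood (-1.52, edgeR adjusted p = 0.0282), while over all alternatives the adjusted p ranged from 0.00691 to 0.942 against stroke blood and from 0.0282 to 0.785 against sham blood. Stroke brain replicate 1 was also the highest brain library for Csf1, Csf2ra and Csf2rb and the lowest for Csf1r. The labels give no reason to leave it out.

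**Figure D3:**
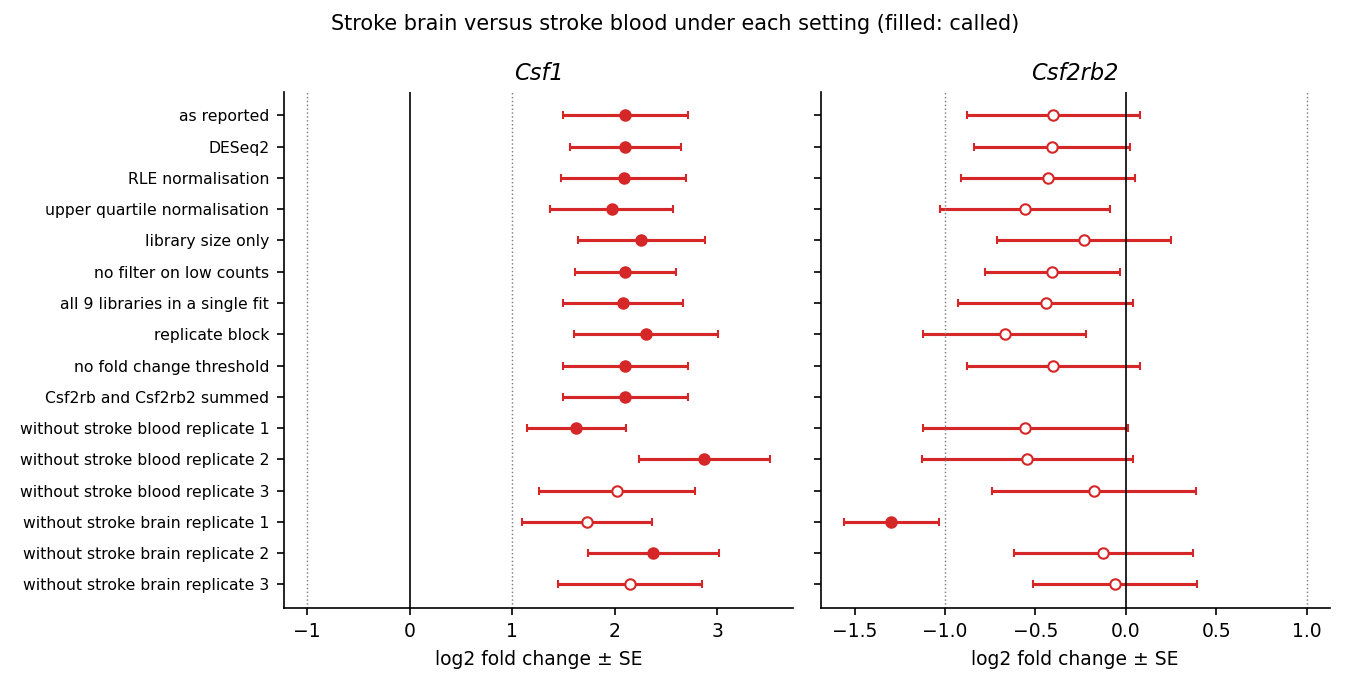
Log2 fold change with its SE on the horizontal axis for Csf1 and Csf2rb2 in stroke brain over stroke blood under each way of processing the counts and with each library left out, filled where called. Csf1 stays above 1 throughout but loses its call in 3 of the fits without a library, and Csf2rb2 is called in the fit without stroke brain replicate 1 alone, at -1.30.

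Csf2rb and Csf2rb2 lie side by side on chromosome 15 in opposite orientation (chr15:78325798-78353847, plus strand, and chr15:78282507-78305721, minus strand), and each shares 62 exon bases with a copy of the microRNA gene Mir7676. Their coding sequences, from the GENCODE M21 transcripts, have 2688 and 2634 bases and were identical at 95.2% of 2628 aligned bases, with a longest identical run of 242 bases. Of 2620 aligned windows of 75 bases, the length of 1 read, 413 were identical and the median window had 3 differences. Over whole transcripts, 518 stretches of 75 bases occurred in both genes, which was 7.15% of those of Csf2rb and 10.6% of those of Csf2rb2. The windows shown were picked among those without gaps that lie within 1 exon of both genes. The first has no difference, in exon 7 (chr15:78341391-78341465, plus strand, and chr15:78291844-78291918, minus strand). The other has the most differences among them, 14, in exon 4 (chr15:78338905-78338979, plus strand, and chr15:78294352-78294426, minus strand), with capitals at the bases that differ.
Csf2rb, exon 7: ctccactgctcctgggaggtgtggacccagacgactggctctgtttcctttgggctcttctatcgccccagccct
Csf2rb2, exon 7: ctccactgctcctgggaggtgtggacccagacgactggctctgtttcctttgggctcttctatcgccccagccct
Csf2rb, exon 4: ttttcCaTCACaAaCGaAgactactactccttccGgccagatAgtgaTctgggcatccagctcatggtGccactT
Csf2rb2, exon 4: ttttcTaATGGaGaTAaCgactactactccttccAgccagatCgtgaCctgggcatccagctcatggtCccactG
A read of the exon 7 window could come from either gene, whereas a read of the exon 4 window differs between them.

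The Csf2rb2 share of the counts of both beta genes was 11.8%, 7.99% and 10.4% in sham blood, 9.80%, 9.14% and 10.7% in stroke blood, and 10.5%, 5.26% and 5.04% in stroke brain. Stroke brain replicates 2 and 3 had the lowest shares of all 9 libraries, and replicate 1 lay within the range of the blood libraries. The mean share was 6.93% ± 3.08 in stroke brain and 9.89% ± 0.804 in stroke blood (SD, n = 3). This difference of -2.97 percentage points was smaller in size than the stroke brain SD and larger than the stroke blood SD. A two-sided exact permutation test gave p = 0.3 (adjusted over the 3 pairs of groups 0.45). Its smallest possible p was 0.1 with 3 libraries in each group, above the threshold used for calls. The test thus cannot decide whether the shares differ. Sham blood averaged 10.1% ± 1.92, with p = 0.3 against stroke brain (adjusted 0.45) and p = 1 against stroke blood (adjusted 1) in the same exact test. Summing both genes before the fit gave a log2 fold change of -0.02 in stroke brain over stroke blood (SE 0.25, edgeR adjusted p = 0.962).

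**Figure D4:**
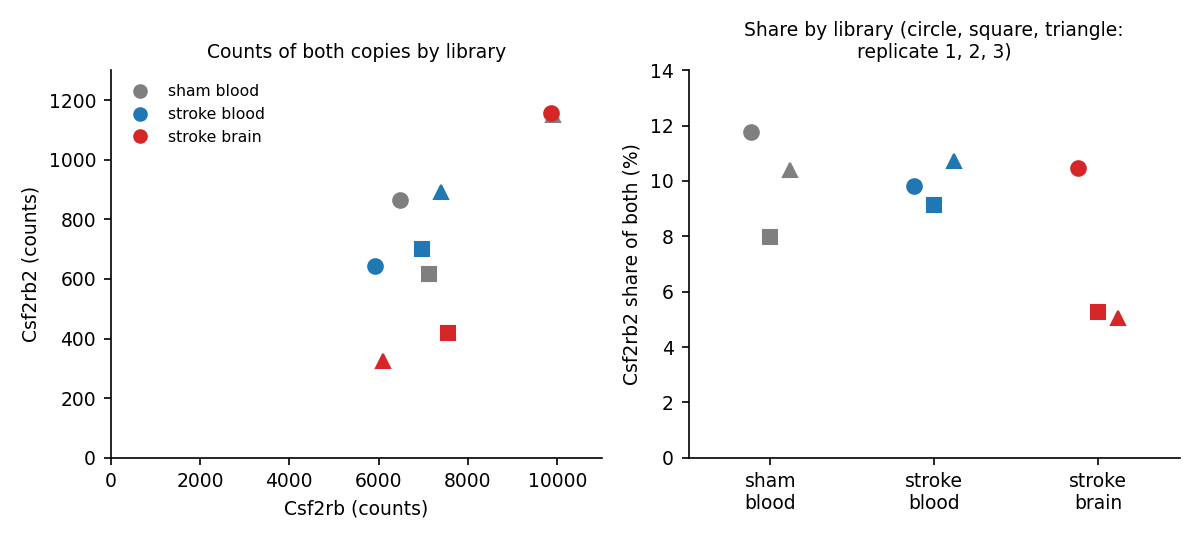
Counts of Csf2rb2 against counts of Csf2rb in each library (left) and the Csf2rb2 share of both in percent (right), with colours for the groups and symbols for the replicates. Stroke brain replicates 2 and 3 sit lowest, at 5.26% and 5.04%, and stroke brain replicate 1, at 10.5%, lies among the blood libraries.

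Most of the other ligands were at or near 0 counts in these cells. Csf3, Il3 and Ptprz1, the last a second receptor for IL-34, had no count in any library, and Il5 had 1 count in stroke brain replicate 1. Csf2, which encodes GM-CSF, had 13 counts in stroke brain replicate 1 and at most 1 count in each other library. Kitl, the ligand of KIT, had 20, 11 and 10 counts in stroke brain, 2, 0 and 0 in sham blood and 0 in all 3 stroke blood libraries, at least 3.93-fold higher in stroke brain than in stroke blood with 3 counts per stroke blood library as the floor, and was too low to be tested. Flt3l, the ligand of FLT3, was the exception at 3.23 ± 0.565, 5.67 ± 1.29 and 3.23 ± 0.517 CPM (SD, n = 3) in sham blood, stroke blood and stroke brain, and did not pass the test between the stroke groups (log2 fold change -0.77, edgeR adjusted p = 0.123).

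Of the 13 related ligands and receptors, 7 were tested in stroke brain over stroke blood, of which 3 were called higher and 1 lower (13.1% and 7.86% of all genes), with a median log2 fold change of 1.02 against 0.06 over all genes tested. Kit, a receptor tyrosine kinase of the same class as CSF1R that mast cells and blood progenitors carry, rose from 0, 16 and 2 counts in stroke blood to 427, 242 and 251 counts in stroke brain (log2 fold change 5.51, edgeR adjusted p = 0.00136). Without stroke blood replicate 1 that value was 4.91, and without replicate 2 it was 7.83. The 5 basophil and mast cell markers summed to 3.65 to 7.93 CPM in stroke brain and 0 to 4.27 CPM in stroke blood. The granulocyte precursor genes Mpo and Elane had 2965, 1017 and 409 counts and 3047, 252 and 386 counts in stroke brain, against 6, 13 and 27 and 84, 23 and 38 in stroke blood, and like Kit were highest in stroke brain replicate 1. The part of either cell type in the rise of Kit was not tested. Sdc1, a proteoglycan that also binds IL-34, rose from 4.83 ± 1.59 to 46.8 ± 11.9 CPM (SD, n = 3, log2 fold change 3.30, edgeR adjusted p = 0.000137). Flt3, another receptor of the class and itself a dendritic cell marker, rose from 51.0 ± 17.7 to 101.5 ± 18.5 CPM (SD, n = 3), close to the threshold (log2 fold change 1.02, edgeR adjusted p = 0.0178). Its call was lost without stroke blood replicate 1 (0.92), without stroke blood replicate 3 (0.80) and without stroke brain replicate 1 (0.88), and also with RLE (0.998) or upper quartile (0.876) scaling and in a single fit of all libraries (0.994).

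Il3ra, the IL-3 receptor alpha chain that pairs with both beta chains, fell from 11.2 ± 2.58 to 4.26 ± 2.51 CPM (SD, n = 3, log2 fold change -1.35, edgeR adjusted p = 0.0383). The call was lost without stroke blood replicate 1 (-1.29) or replicate 3 (-1.29) and without stroke brain replicate 2 (-1.10) or replicate 3 (-1.13), and without stroke brain replicate 1 the value was -1.95. It was lost as well when counts were scaled by library size only (-1.19). Il5ra stood at 3.20 ± 2.34 and 6.65 ± 1.34 CPM (SD, n = 3) in stroke blood and stroke brain (log2 fold change 1.07, edgeR adjusted p = 0.151) and was called without stroke blood replicate 2 (1.82). Csf3r, the G-CSF receptor, did not pass the test (log2 fold change -0.16, edgeR adjusted p = 0.568). Against sham blood, 2 of the 7 were called higher in stroke brain and 0 lower, and between the blood groups edgeR called 0.

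Genes listed for CSF1R signalling were called about as often as all genes. Of the 24 genes on that list, all tested, 5 were called higher in stroke brain than in stroke blood and 0 lower. Of all genes, 13.1% were called higher and 7.86% lower (21.0% together). The list had a median log2 fold change of -0.03. Fyn, a SRC family kinase, rose from 19.6 ± 4.44 to 152.7 ± 23.3 CPM (SD, n = 3, log2 fold change 3.00, edgeR adjusted p = 2.92e-05). Dok2, an adaptor that restrains receptor tyrosine kinase signalling, rose from 46.3 ± 5.90 to 159 ± 23.6 CPM (SD, n = 3, log2 fold change 1.81, edgeR adjusted p = 0.000164). Akt1 rose unevenly, to 298.7 ± 200 CPM from 77.3 ± 20.4 CPM (SD, n = 3, log2 fold change 1.99, edgeR adjusted p = 0.0211). Its call was lost without any 1 of the stroke blood libraries (1.75 to 2.12) and without stroke brain replicate 2 (1.59) or replicate 3 (1.79).

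Below the GM-CSF receptor, 6 of 12 signalling genes were called higher and 0 lower, against 13.1% and 7.86% of all genes, with a median log2 fold change of 1.10 (0.06 over all genes). They included Cish, Socs2 and Pim1, which STAT5 is known to induce. Cish, a feedback inhibitor, had 15, 17 and 23 counts in stroke blood and 339, 270 and 222 counts in stroke brain (log2 fold change 3.71, edgeR adjusted p = 0.00024). Socs2, of the same inhibitor family, had 16, 18 and 4 counts in stroke blood and 114, 143 and 185 counts in stroke brain (log2 fold change 3.35, edgeR adjusted p = 0.00154). Pim1, a survival kinase, rose from 44.4 ± 21.5 to 324.2 ± 151 CPM (SD, n = 3, log2 fold change 2.92, edgeR adjusted p = 0.00106). For none of these genes do the data show which receptor they answered to, and the exons of Cish and Pim1 overlap antisense genes. This list, like the other gene lists here, was chosen with earlier results of these data known. Setting its calls beside the share of all genes is thus a description and not a test.

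Of 13 factors listed as acting on Csf1r or in macrophage differentiation, 8 were called higher and 0 lower in stroke brain over stroke blood. The shares of all genes were 13.1% and 7.86%, and the list had a median log2 fold change of 2.37. It too was chosen with earlier results of these data known, so these counts are a description and not a test. Spi1 (log2 fold change -0.14), Runx1 (0.66), Irf8 (0.08), Maf (0.71) and Cebpa (-0.94) were not called, and neither was Csf1r itself. Cebpb, a bZIP factor of myeloid cells, rose from 37.6 ± 17.0 to 1235 ± 316 CPM (SD, n = 3, log2 fold change 5.08, edgeR adjusted p = 3.22e-05), and 312 of its 1504 exon bases overlap Tmem189 on the opposite strand. The immediate early factors Egr2 and Egr1 rose with log2 fold changes of 5.20 (edgeR adjusted p = 0.000339) and 4.79 (edgeR adjusted p = 1.14e-05). Egr1 varied widely in sham blood, at 67.5 ± 101 CPM against 19.0 ± 2.15 CPM in stroke blood and 513.6 ± 174 CPM in stroke brain (SD, n = 3), and was not called in stroke brain over sham blood (edgeR adjusted p = 0.107). Microglia, dendritic cell and most neutrophil markers, given above, were higher in the same libraries as these genes. Brain and blood cells were also prepared differently, and the part of preparation in these rises was not tested.

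Of 4 genes known to respond to GM-CSF, 3 were called higher and 1 lower, against the same 13.1% and 7.86% of all genes, with a median log2 fold change of 3.21, the same when Ccl22 was set to its lower bound. These genes too were chosen with earlier results of these data known, so the counts are a description and not a test. Ccl22, a chemokine, had 761, 595 and 1156 counts in stroke brain and 0 in all 6 blood libraries, at least 236.2-fold higher than in stroke blood with 3 counts per library as the floor (edgeR adjusted p = 3.78e-05). Ccl17, which shares a receptor with CCL22, had 28, 151 and 37 counts in stroke brain against 2, 0 and 3 in stroke blood and 0 in sham blood (edgeR adjusted p = 0.00513 against stroke blood). Pparg, a nuclear receptor, rose from 15.1 ± 4.03 to 38.0 ± 3.41 CPM (SD, n = 3, log2 fold change 1.36, edgeR adjusted p = 0.00295). Irf4, a transcription factor of dendritic cells and macrophages, went the other way, from 29.6 ± 2.90 to 10.6 ± 3.17 CPM (SD, n = 3, log2 fold change -1.45, edgeR adjusted p = 0.00304). Csf2 itself had 13, 0 and 0 counts in stroke brain replicates 1 to 3. These counts cover the sorted cells alone, and GM-CSF from other cells was not measured. The part of GM-CSF in the values of these genes was not tested. Dendritic cell markers summed to 708.8 to 863.9 CPM in the same brain libraries although the gate removed CD11c+ cells, and their part in the values of Ccl22 and Ccl17 was not tested.

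In stroke brain over sham blood, edgeR called higher 3 of the 24 CSF1R signalling genes and 4 of the 12 below the GM-CSF receptor. It also called higher 3 of the 4 GM-CSF responsive genes, with 0 lower in these lists. Of the 13 regulators, 8 were called higher and 1, Cebpa, lower (log2 fold change -1.38, edgeR adjusted p = 0.0287). Of all genes tested there, 9.75% were called higher and 3.67% lower (13.4% together), and the 3 of 24 lay near that share. Between the blood groups edgeR called 0 genes in each of these lists.

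**Figure D5:**
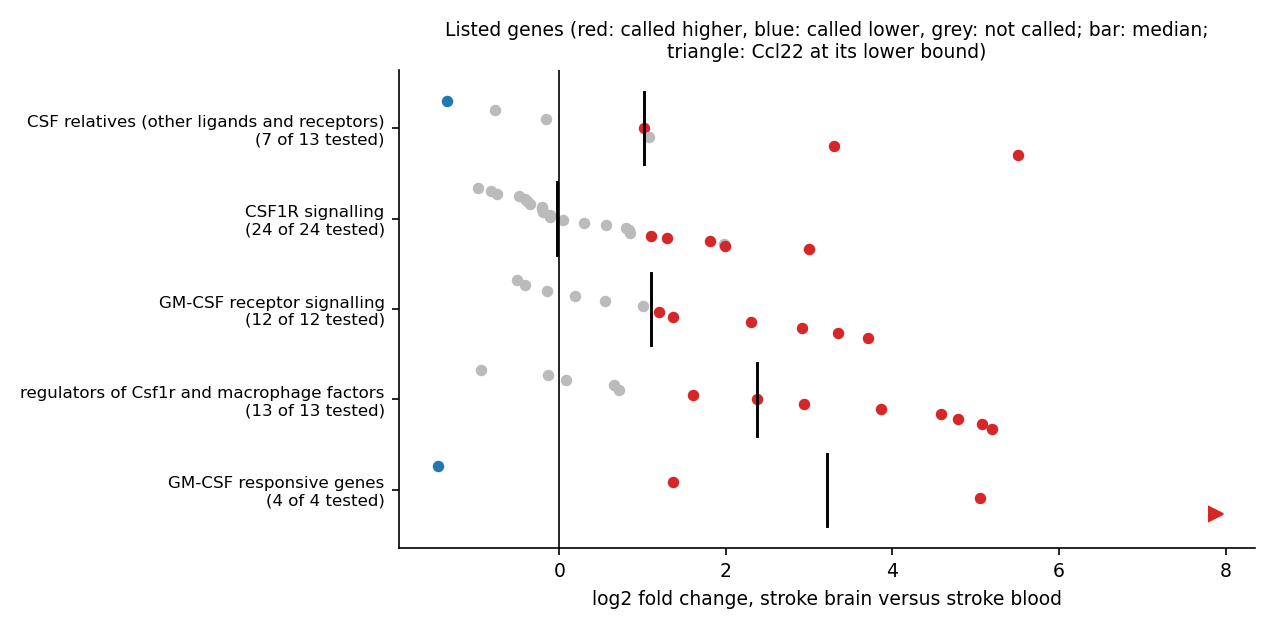
Log2 fold change in stroke brain over stroke blood on the horizontal axis for each tested gene of the 5 lists, red where called higher, blue where called lower and grey where not called, with a black bar at each median. The regulators and the GM-CSF responsive genes lie furthest to the right, with medians of 2.37 and 3.21, and Ccl22 is drawn at its lower bound.

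Each member was compared with the 9028 genes of at least 5 CPM on average, by the root mean square difference of centred log2(CPM + 1) values over the 9 libraries. Nearest to Csf1 were Ldlrad4 (0.364) and Lig1 (0.451). The pattern of Csf1r was closest to that of Crk (0.0999), Pigh (0.105) and Sh3gl1 (0.109), and that of Csf2ra to Ddx49 (0.122), Kif3b (0.123) and Dstyk (0.128). Beside Csf2rb stood Ppp1r10 (0.162), Nckipsd (0.164) and Urb1 (0.164), none of them the other beta gene. Csf2rb2 was closest to Anxa11 (0.257), Myh9 (0.27) and Tle3 (0.278). Myh9 had the same uneven brain group, at 189.3 ± 167 CPM against 221.9 ± 37.7 CPM in stroke blood (SD, n = 3), and Tle3 likewise at 35.2 ± 28.9 CPM against 49.1 ± 9.89 CPM. The larger distances for Csf1 and Csf2rb2 than for the other members go with their larger spread between libraries.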

How the data were processed

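Bulk RNA-seq libraries were made by the authors from sorted cells with SMART-Seq HT and Nextera XT and read as pairs of 75 bases. Per the submitters' processing notes, reads were aligned with HISAT2 to GRCm38 and counted with HTSeq (versions not given in the sources used here), and the strand setting of the counting is not given there either. The deposited values are raw counts per gene. The libraries carry no molecular identifiers, so floors cover counting error only.

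Counts were compared between 2 groups at a time with the quasi-likelihood test of edgeR 4.0.16 (R 4.3.3), TMM normalisation and filterByExpr, with Benjamini-Hochberg adjustment over all genes tested. A call needed a log2 fold change above 1 in size and an adjusted p under 0.05, and 95% intervals came from the fitted SE. Levels are TMM-normalised CPM with factors over all 9 libraries. The fits were tested on simulated counts. The authors used DESeq2, which was an alternative here (1.42.0), beside other scalings, no filter, a single fit, the replicate block, summed beta genes and each library left out. The text names every member and every CSF relative, up to 3 called rises and 3 called falls of largest size in each other list (mean of at least 1 CPM over the libraries compared), and the 3 genes nearest to each member, of which 1 is not reported here. Also named are the regulators not called in stroke brain over stroke blood, and some single marker genes. Members and lists were chosen with earlier results of these data known. The day of blood collection for the sham group is not given in the sources used here.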

Additional observations from a re-analysis of the deposited data

How the results depend on the processing

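The number of members called in stroke brain over stroke blood was 1 under each alternative that kept all libraries and 0 to 1 as each library was left out, and without stroke brain replicate 1 the 1 called was Csf2rb2, not Csf1. In stroke brain over sham blood it went from 0 to 1 (Csf1) with DESeq2, library size only, no filter on low counts and the replicate block (log2 fold change 1.22, 1.36, 1.21 and 1.19), and was 0 to 1 as each library was left out. Values near 0 changed sign without being called. In stroke brain over stroke blood, Csf2ra was -0.0563 (upper quartile) and -0.0513 to 0.191 as each library was left out, and Csf2rb was -0.0123 (RLE), -0.135 (upper quartile), -0.0204 (a single fit), -0.0151 (replicate block), -0.019 (summed beta genes) and -0.27 to 0.196 without each library. In stroke over sham blood, Csf1r was -0.0316 (library size only), -0.0181 (no filter), -0.0174 (replicate block) and -0.221 to 0.109 without each library, Csf2rb -0.364 to 0.0879, Csf2rb2 -0.474 to 0.1003 and the difference in the Csf2rb2 share -1.2 to 0.694 percentage points. Csf2rb in stroke brain over sham blood was -0.473 to 0.104. The cause was not tested.

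The replicate block left Csf1 called in stroke brain over stroke blood (log2 fold change 2.31, edgeR adjusted p = 0.0385) and changed the calls over all genes from 2771 to 2634, from 1748 to 1571 in stroke brain over sham blood, and from 1 higher and 0 lower to 0 higher and 1 lower, a different gene, between the blood groups. Same-numbered libraries had correlations of their deviations of -0.0819 to 0.0815, and not every sample correlated best with its own number. With 3 libraries in each group, such correlations cannot show whether the numbers pair the samples. Scaling moved the median over all genes in stroke brain over stroke blood from 0.06 to 0.22 (library size only) and -0.09 (upper quartile). Between the blood groups, DESeq2 called 135 genes, no filter 160, edgeR as reported 1, and leaving out libraries 0 to 16. The 1748 calls in stroke brain over sham blood became 1146 (without sham blood replicate 3) to 1883 (without stroke brain replicate 1) as each library was left out. They were 1281 without stroke brain replicate 2 and 1310 without sham blood replicate 2. Csf1 rests on 18 to 460 counts per library, and 3 libraries in each group limit every interval.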
